A study of Mus musculus with 4 samples.

Results

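The cells described here carried the deposited name CD4_Tfh, given to helper T cells of the follicular kind, among CD45-positive cells sorted from 4T1 mouse mammary tumours. A cell was a member when its barcode had that name in the deposited annotation and a column in the count table. There were 158 such cells of 16383 with counts, 116 with barcode suffix 1 and 42 with suffix 2, out of 376 so named among 45781 annotated barcodes. Both suffixes are given apart throughout, and the cells are set against 1223 cells of the other 4 CD4 names (996 and 227), which are CD4_Th, CD4_Treg, CD4_Tcm and CD4_Tn.

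The study compared Mif-depleted with wild-type tumours of 4T1, a transplantable mammary carcinoma line of BALB/c mice. The 2 Mif-depleted and 2 wild-type samples each combined 3 tumours that were dissociated and sorted for CD45-positive cells negative for propidium iodide, and were then profiled by 10x droplet RNA sequencing. All tumours grew in BALB/c mice, and Mif, the gene of a cytokine, was the depleted gene in the tumour line. No label ties a barcode suffix to a sample, so no value below compares the genotypes.

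Follicular helper T cells are the CD4 T cells that help B cells make antibody in germinal centres. They depend on the transcription factor Bcl6, follow the chemokine CXCL13 through the receptor CXCR5, and hold on to B cells through costimulatory and SLAM family receptors while delivering CD40 ligand and interleukin 21. In tumours, cells of this kind have been described in and around lymphoid aggregates.

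The counts are of UMIs, the distinct tagged molecules of a gene in a cell, and covered 4099 genes on chromosomes 1 to 4 and part of chromosome 5, so Bcl6, Cxcr5, Cd4, Cd8a and Cd40lg were not analysed here. The CD4_Tfh cells held 86974 UMIs of these genes in suffix 1 and 46187 in suffix 2, with medians of 683 and 948.5 per cell, and the other CD4 names held 731504 and 222674 UMIs, with medians of 652 and 896. Levels are summed UMIs per 10000 of these UMIs, with exact Poisson 95% intervals in brackets. Ratios are log2 of the CD4_Tfh level over the level of the other names, with exact conditional binomial 95% intervals. Each suffix is taken here as 1 library and is called so below, though no label states it. Cells are not replicates, so there is no replicate error and no test, and every interval covers counting error only. A gene is called 2-fold higher or lower when its ratio passes that size with at least 20 UMIs on both sides together.

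CD4_Tfh cells were a small share of every library. They made up 0.881% [0.729, 1.06] of the annotated cells of suffix 1, 1.24% [1.05, 1.45] of suffix 2, 0.236% [0.148, 0.357] of suffix 3 and 0.794% [0.639, 0.975] of suffix 4 (exact Clopper-Pearson 95% intervals), from 116, 148, 22 and 90 cells. The share in suffix 3 lay below the intervals of the others. In that suffix all CD4 names together made up 2.55% of the cells, against 8.45%, 8.65% and 10.0% in suffixes 1, 2 and 4. As a share of the CD4-named cells, CD4_Tfh was 10.4% [8.70, 12.4] in suffix 1, 14.3% [12.2, 16.6] in suffix 2, 9.24% [5.88, 13.7] in suffix 3 and 7.93% [6.42, 9.66] in suffix 4. Measured this way suffix 3 no longer stood apart, and its interval overlapped those of all the others, while that of suffix 4 lay below that of suffix 2. Within suffix 2 the name was about as frequent among the cells with counts (1.30%, 42 of 3221) as among those without (1.21%, 106 of 8740). Pairs of suffixes shared 24 to 42 barcode sequences, and 0 of those were CD4_Tfh in both.

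**Figure D1:**
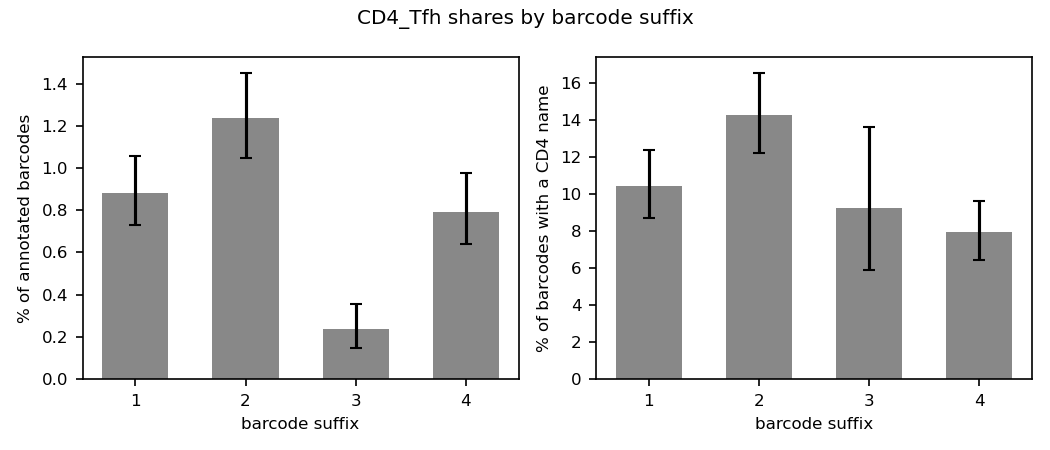
Share of CD4_Tfh cells in each barcode suffix, in percent of all annotated cells and in percent of CD4-named cells, with exact Clopper-Pearson 95% intervals as bars. Suffix 3 stands lowest of all annotated cells, at 0.236%, but at 9.24% lies among the others as a share of CD4-named cells.

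The name was checked against T cell genes and against its 2 given markers. The annotation writes Tbc1d4 beside it, a gene not analysed here, and the name may rest on some of the genes measured, so their levels describe the cells and do not test the name. The pan-T genes Cd2, Cd247 and Lck, an adhesion receptor, the zeta chain of the T cell receptor and its kinase, summed to 47.0 in CD4_Tfh and 38.6 in the other CD4 names of suffix 1, and to 39.6 and 36.6 in suffix 2. The CD4 T cell markers measured, Icos and Lef1, went the other way, with 27.6 and 41.7 in suffix 1 (-0.60 [-0.79, -0.41]) and 11.5 and 37.0 in suffix 2 (-1.69 [-2.12, -1.29]). Of the given markers, Tnfsf8 had 123 UMIs and Tox2 9 UMIs in CD4_Tfh of suffix 1. Tox2, a nuclear factor that promotes the follicular helper programme, had 9 UMIs in 5 of the CD4_Tfh cells of suffix 1, or 1.03, against 0.19 in the other names (log2 ratio 2.43 [1.05, 3.75]). In suffix 2 it had 1 UMI in CD4_Tfh and 3 UMIs in the other names (0.68 [-5.03, 4.32]), too few to tell a direction. Tox2 was also found in CD4_Th of suffix 1, with 10 UMIs, and without CD4_Tn and CD4_Tcm its log2 ratio in suffix 1 was 0.99. Pdcd1, which encodes PD-1 and is high in germinal centre follicular helper cells, was at 2.53 in CD4_Tfh, against 17.6 in CD4_Th and 7.88 in CD4_Treg of suffix 1, and in suffix 2 at 3.03, against 3.25 and 4.59. Neither given marker was highest in CD4_Tfh in both libraries. Tnfsf8 stood higher than in the other CD4 names pooled in both, but CD4_Th was above CD4_Tfh in suffix 1, and Tox2 was highest in CD4_Th of suffix 1 (1.50) and in CD4_Treg of suffix 2 (0.36, against 0.22 in CD4_Tfh). No measured gene here settles the name, and the cells are called by the deposited name from here on.

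Tnfsf8 encodes CD30 ligand, a TNF family member on activated T cells, and lies on the minus strand of chromosome 4 from 63831308 to 63861347 (GRCm38, GENCODE M21). In suffix 1 its level was 14.1 [11.8, 16.9] in CD4_Tfh, against 17.9 in CD4_Th, 3.30 in CD4_Tcm, 0.93 in CD4_Tn and 0.54 in CD4_Treg. In suffix 2 it was 14.9 [11.6, 18.9] in CD4_Tfh, against 9.76, 1.63, 0.85 and 0.00 in the same order of names. The level in CD4_Tfh was thus alike in both libraries. Set against the other CD4 names pooled, it stood 4.90-fold higher in suffix 1 (log2 2.29 [1.96, 2.62]) and 5.12-fold higher in suffix 2 (2.36 [1.85, 2.87]). For the whole interval to lie beyond 2-fold was rare, since 5 of 2234 genes did so on the high side in suffix 1 (0.224%) and 5 of 1489 in suffix 2 (0.336%). The ratio to single names was lowest against CD4_Th, at -0.34 [-0.71, 0.04] in suffix 1 and 0.61 [0.08, 1.15] in suffix 2, so the order of these names differed between libraries. Against CD4_Tcm it was 2.10 and 3.20, and against CD4_Tn 3.93 and 4.14. CD4_Treg had 0 Tnfsf8 UMIs in 82 cells of suffix 2. With a floor of 3 counts over the name the log2 ratio there was 5.37, and the lower limit of its interval was 5.03. The pooled ratio depends on the names it is set against: in suffix 1 it was 1.32 with the 4 names weighted equally, 1.55 without CD4_Tn and CD4_Tcm, and 3.35 without CD4_Th.

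The Tnfsf8 UMIs came from a minority of the CD4_Tfh cells. They were found in 36 of 116 cells of suffix 1, with 20 of 123 UMIs in the richest cell, and in 17 of 42 cells of suffix 2, with 15 of 69 UMIs in the richest. In CD4_Th the spread over cells differed between libraries. There 18 of 56 cells held the 119 UMIs of suffix 1, while 3 cells held the 54 UMIs of suffix 2, 51 of them in 1 cell. Leaving out the richest cell of each CD4 name gave pooled log2 ratios of 2.23 (suffix 1) and 4.70 (suffix 2). After every cell was thinned to 500 UMIs, a Tnfsf8 UMI was found in 29.2% [20.3, 39.3] of CD4_Tfh cells in suffix 1 and in 27.0% in suffix 2. The thinned shares in suffix 1 were 27.8% in CD4_Th, 11.5% in CD4_Tcm, 4.58% in CD4_Tn and 2.16% in CD4_Treg, and in suffix 2 they were 3.77%, 12.2%, 5.41% and 0% [0, 4.86]. Thinning left out 20 and 5 CD4_Tfh cells that were shallower than 500 UMIs. Neutrophils held it in 0.26% and 0.86% of cells before thinning and in 0.04% and 0.13% after it, well below the CD4_Tfh shares. The part of stray transcripts in these shares was not tested.

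**Figure D2:**
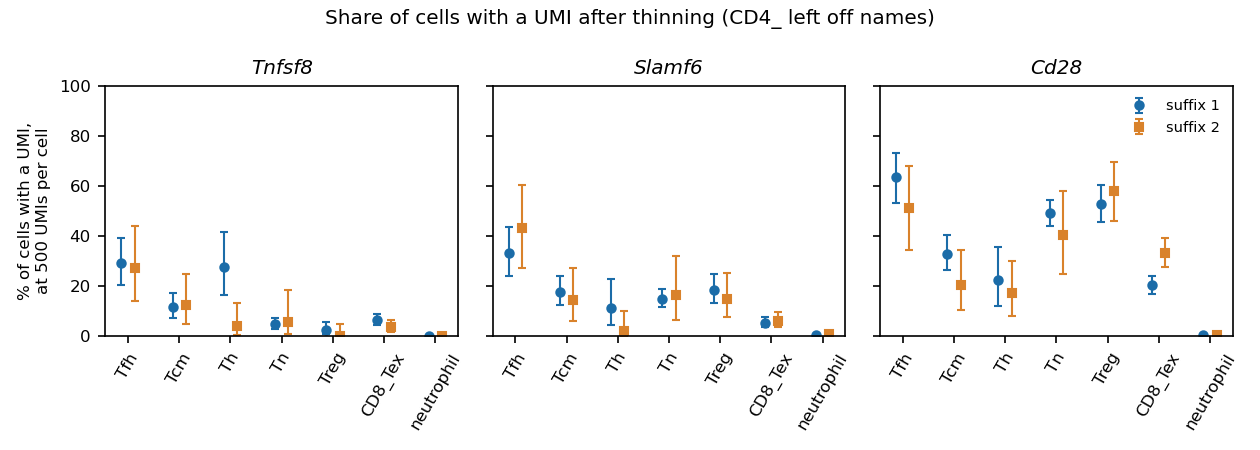
Share of cells with at least 1 UMI, in percent, after thinning to 500 UMIs per cell, for Tnfsf8, Slamf6 and Cd28 (1 panel each) in the 5 CD4 names, CD8_Tex and neutrophils, with suffix 1 as circles, suffix 2 as squares and exact Clopper-Pearson 95% intervals as bars. Tnfsf8 was found in 29.2% and 27.0% of CD4_Tfh cells and Slamf6 in 33.3% and 43.2%, while neutrophils lie near 0.

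The bases just upstream of 3 genes that stood higher in CD4_Tfh in both libraries are shown because the comparisons turn on these genes. They are RefSeq promoter sequences on GRCm38.p6, up to 250 bases before the start, less any bases that GENCODE places in an exon. Capitals mark GGAAA on either strand, the core recognised by NFAT factors, which T cell receptor signals switch on. The Tnfsf8 sequence spans chr4:63861348-63861534 on the minus strand, that of Slamf6 chr1:171917212-171917461 on the plus strand, and that of Nr4a2 chr2:57124004-57124253 on the minus strand.
Tnfsf8: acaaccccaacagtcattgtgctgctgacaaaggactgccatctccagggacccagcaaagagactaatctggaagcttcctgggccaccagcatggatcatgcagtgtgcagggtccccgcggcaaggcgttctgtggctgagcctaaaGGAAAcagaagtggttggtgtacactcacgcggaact
Slamf6: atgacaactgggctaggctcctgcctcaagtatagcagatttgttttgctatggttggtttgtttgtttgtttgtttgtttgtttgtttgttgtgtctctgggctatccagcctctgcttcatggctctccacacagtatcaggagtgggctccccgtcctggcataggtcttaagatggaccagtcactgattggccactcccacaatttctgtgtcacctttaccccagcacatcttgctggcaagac
Nr4a2: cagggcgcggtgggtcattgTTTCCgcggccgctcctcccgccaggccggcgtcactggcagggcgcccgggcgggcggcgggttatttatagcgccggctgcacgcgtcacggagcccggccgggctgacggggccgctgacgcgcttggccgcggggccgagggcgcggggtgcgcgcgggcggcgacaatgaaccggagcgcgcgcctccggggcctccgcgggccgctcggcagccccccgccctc
GGAAA was found once in the 187 bases of Tnfsf8 and once in the 250 bases of Nr4a2, there as TTTCC from the other strand, and 0 times in Slamf6. Of 32851 promoters, 46.5% held it within 187 bases and 55.6% within 250 bases, so such a match is common. The AP-1 sequence TGANTCA, with N for any base and both strands searched, had 0 matches in all 3, and 5.14% and 6.75% of promoters held it at these lengths. With 0 matches of TGANTCA, no match of either motif overlapped the other. A match describes the letters only, and a missing match says nothing of the factor.

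Among all genes with at least 20 UMIs, 112 of 2234 stood 2-fold higher in CD4_Tfh of suffix 1 (5.01%) and 149 stood 2-fold lower (6.67%), with a median log2 ratio of 0.04 over all 2234. In suffix 2 the numbers were 84 (5.64%) and 136 (9.13%) of 1489, with a median of 0.06. Against CD4_Th and CD4_Treg alone, 62 of 1734 genes stood 2-fold higher in suffix 1. The lists overlapped in part. Of the genes with enough UMIs in both libraries, 32 and 84 were called higher, and 11 were shared, 34.4% of the first list and 13.1% of the second. Of 57 and 134 called lower, 16 were shared, 28.1% and 11.9%. In the opposite direction in suffix 2 lay 8 of the 32 and 21 of the 57. The 11 genes higher in both were Tnfsf8, Slamf6, Nr4a2, Ift80, Slc35d1, Sh3glb2, A630001G21Rik, Cd1d1, Usp33, Rgs3 and Rpa2. The 16 lower in both were Il1rl1, Dapl1, Lef1, Tnfrsf9, Arl5a, Neb, Itgav, Fgl2, Penk, Plin2, Creg1, Sdcbp2, Gmeb2, Ifi208, Abl2 and Acadm.

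**Figure D3:**
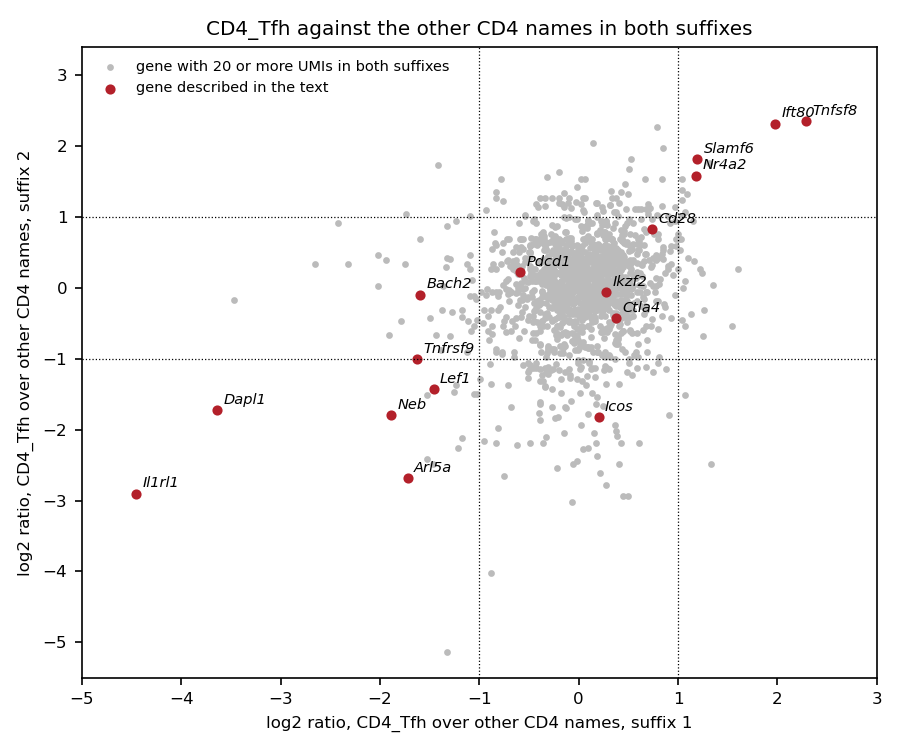
Log2 ratio of the CD4_Tfh level over the other CD4 names in suffix 1 (horizontal axis) and suffix 2 (vertical axis), 1 grey point per gene with at least 20 UMIs in both suffixes, described genes in red and dotted lines at 2-fold. Tnfsf8 lies at 2.29 and 2.36, while Il1rl1, Dapl1 and Lef1 lie below -1 on both axes.

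Slamf6 and Cd28, receptors used by T cells in contact with B cells and other partners, stood higher in CD4_Tfh in both libraries. Slamf6, a SLAM family receptor that binds itself on a partner cell and signals through SAP, was at 9.77 [7.81, 12.1] in CD4_Tfh of suffix 1, against 2.40 in CD4_Th, 5.32 in CD4_Treg, 5.05 in CD4_Tcm and 3.55 in CD4_Tn. In suffix 2 it was at 14.3 [11.1, 18.2], against 0.36, 4.95, 7.32 and 3.11 in the same order. CD4_Tfh was the highest CD4 name in both libraries, and its interval lay above the level of every other CD4 name. The log2 ratio to the pooled names was 1.20 [0.83, 1.55] in suffix 1 and 1.82 [1.34, 2.30] in suffix 2. Slamf6 was in 43 of 116 cells with at most 5 of 85 UMIs in a cell, but in suffix 2 in 20 of 42 cells with 20 of 66 UMIs in 1 cell. Thinned to 500 UMIs, 33.3% and 43.2% of CD4_Tfh cells held it, against 11.1% and 1.89% of CD4_Th, 18.4% and 14.9% of CD4_Treg, 17.6% and 14.3% of CD4_Tcm and 14.8% and 16.2% of CD4_Tn. The thinned shares kept CD4_Tfh above the other CD4 names, and neutrophils were at 0.23% and 0.90%. Slamf6 lies on the plus strand of chromosome 1 from 171917515 to 171953170, with no overlapping exon of another annotated gene. B cells, which also use this receptor, had Slamf6 levels of 6.54 and 3.69.

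Cd28, the receptor that gives naive T cells their main costimulatory signal, was at 26.6 [23.2, 30.2] in CD4_Tfh of suffix 1, against 15.9 in the other CD4 names (0.74 [0.53, 0.95]). In suffix 2 it was at 19.1 [15.3, 23.5], against 10.7 (0.83 [0.46, 1.19]). CD4_Treg was the nearest name, at 19.3 and 18.6, and CD4_Tn was next, at 18.6 and 10.2. Set against CD4_Treg alone, CD4_Tfh had log2 ratios of 0.46 [0.22, 0.70] (suffix 1) and 0.04 [-0.36, 0.42] (suffix 2), so in the second library these names were not separated. Cd28, on the plus strand of chromosome 1 from 60716800 to 60773359, was found widely, in 84 of 116 and 29 of 42 CD4_Tfh cells. Slamf6 and Cd28 were found together in 30.2% and 40.5% of CD4_Tfh cells, against 19.5% and 18.3% of CD4_Treg, 9.74% and 13.5% of CD4_Tn, 9.30% and 3.85% of CD4_Tcm and 7.14% and 1.79% of CD4_Th. These shares are not thinned. The median depth of CD4_Tfh, 683 and 948.5 UMIs, stood against 812 and 884 in CD4_Treg, 1013.5 and 960 in CD4_Th, 590 and 896.5 in CD4_Tcm and 623 and 875 in CD4_Tn, so depth was not matched in either direction.

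The other SLAM family receptors did not follow Slamf6 in both libraries. Slamf1 was at 5.63 in CD4_Tfh and 2.72 in the other names of suffix 1 (1.05), but at 3.46 in both in suffix 2 (0.00). Cd84 was at 3.79 and 3.90 in suffix 1 and at 5.20 and 2.65 in suffix 2 (0.97). Ly9 was at 1.15 and 1.67 in suffix 1 and at 3.03 and 1.48 in suffix 2 (1.03). Over the list of surface and B cell help genes, 12 of 24 were measured, and 3 were called higher and 0 lower in suffix 1, and 3 higher and 1 lower in suffix 2. Over all genes 5.01% and 6.67% were called higher and lower in suffix 1, and 5.64% and 9.13% in suffix 2, and Tnfsf8, the given marker, is 1 of the 3 in each library. The summed level was 172 [163, 181] in CD4_Tfh, against 129 in the other names of suffix 1 (0.42 [0.34, 0.50]), and 124 [115, 135] against 126 in suffix 2 (-0.01 [-0.15, 0.12]). CD4_Treg had the highest sum, 274 and 249.5, in which Ctla4, Icos and Tnfrsf4 made up 96.0, 46.2 and 38.3 in suffix 1, and CD4_Tcm the lowest, 46.8 and 27.9. In suffix 1 the log2 ratio of the sum was 1.24 without CD4_Treg and -0.51 without CD4_Tn and CD4_Tcm.

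**Figure D4:**
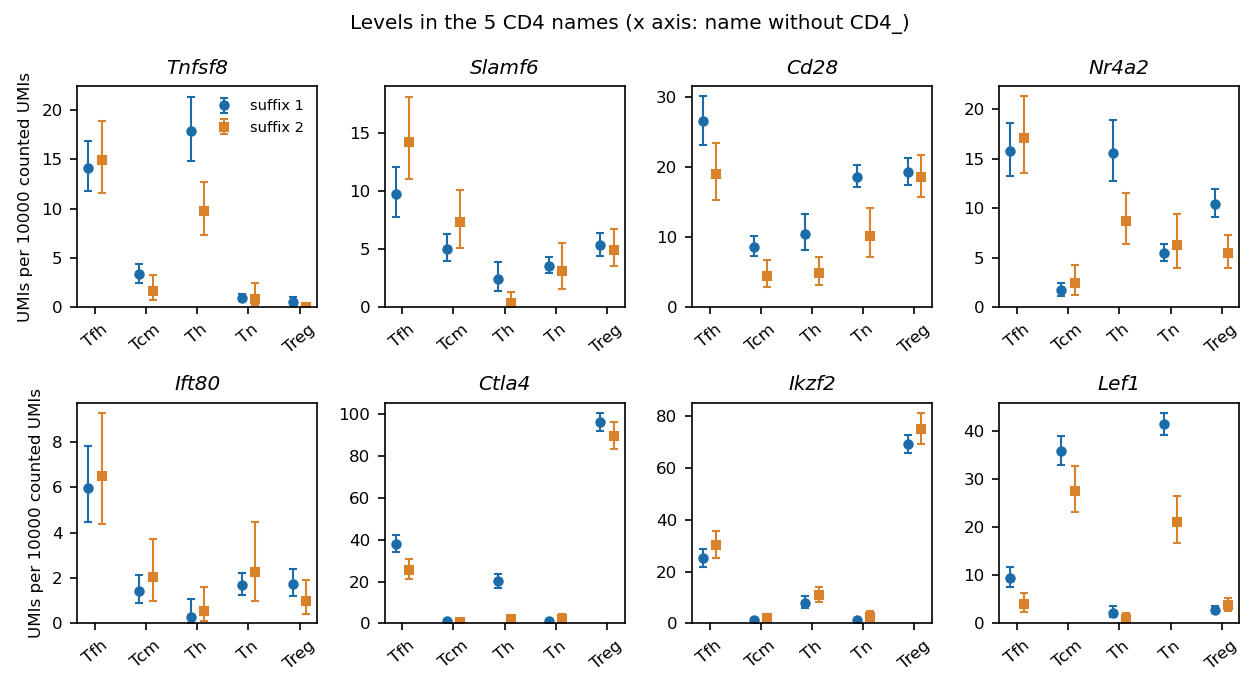
Levels of 8 genes (1 panel each), in UMIs per 10000 counted UMIs, in the 5 CD4 names, with suffix 1 as circles, suffix 2 as squares and exact Poisson 95% intervals as bars. Slamf6 and Ift80 are highest in CD4_Tfh in both suffixes, while Ctla4 and Ikzf2 are highest in CD4_Treg and Lef1 in CD4_Tn and CD4_Tcm.

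Nuclear receptors of the Nr4a family are switched on quickly by T cell receptor signals. Nr4a2 was at 15.8 in CD4_Tfh, against 6.93 in the other CD4 names of suffix 1 (1.18 [0.90, 1.46]), and at 17.1 against 5.70 in suffix 2 (1.58 [1.16, 2.00]). It was found in 38 of 116 and 15 of 42 cells. CD4_Th of suffix 1 reached the same Nr4a2 level, 15.6, and in suffix 2 stood at 8.68, while CD4_Tcm was lowest at 1.68 and 2.44. Its relative Nr4a3 showed no such difference, at 14.4 and 13.3 in suffix 1 and at 9.53 and 9.34 in suffix 2. The activation list had 9 of 21 genes measured. It had 1 gene called higher and 0 lower in each library, where 5.01% and 5.64% of all genes were called higher. It summed to 234 in CD4_Tfh and 176 in the other names of suffix 1, but to 143 and 157 in suffix 2.

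Genes of T cell receptor signalling stood slightly higher in CD4_Tfh than in the other CD4 names pooled, at about the level of CD4_Treg. With 14 of 19 measured, they summed to 175 [166, 184] in CD4_Tfh and 138 in the other names of suffix 1 (0.34 [0.26, 0.42]), and to 150 [139, 162] and 117 in suffix 2 (0.36 [0.24, 0.48]). CD4_Treg alone summed to 173 and 163. The difference was well under 2-fold, and 0 members were called in suffix 1 and 1, Prkcq, was called higher in suffix 2. Calls over all genes were 5.01% higher and 6.67% lower in suffix 1, and 5.64% and 9.13% in suffix 2. Ptprc, the phosphatase CD45 by which the cells were sorted, was at 61.7 and 49.7 in suffix 1 and at 55.4 and 40.7 in suffix 2. Lck, the kinase that starts the signal, was at 12.1 and 9.99 in suffix 1 and at 14.9 and 9.30 in suffix 2. For both genes CD4_Tfh was the highest CD4 name in both libraries, by little for Lck over CD4_Tcm (11.1 and 14.2). Prkcq, the kinase that carries the CD28 signal on, had a log2 ratio of 1.20 in suffix 2, from 4.55 in CD4_Tfh and 1.98 in the other names.

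Ift80, a subunit of the transport machinery of cilia, stood higher in CD4_Tfh by a like amount in both libraries. Its level in CD4_Tfh was 5.98, against 0.30 to 1.72 in the single other CD4 names of suffix 1, and 6.50 against 0.54 to 2.26 in suffix 2. The log2 ratio to the pooled names was 1.98 [1.47, 2.47] and 2.32 [1.53, 3.11]. It was found in 35 of 116 and 17 of 42 cells, and after thinning in 22.9% and 37.8% of CD4_Tfh cells, against 0% [0, 6.60] and 1.89% of CD4_Th, 7.03% and 5.41% of CD4_Treg, 6.04% and 10.2% of CD4_Tcm and 7.28% and 10.8% of CD4_Tn. No exon of another annotated gene overlaps Ift80 (chromosome 3, 68892499 to 69004570, minus strand).

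Spry1, an inhibitor of receptor tyrosine kinase and antigen receptor signalling, had the highest log2 ratio of the genes named by rule in suffix 1, 2.64 [1.80, 3.47], from 2.64 in CD4_Tfh and 0.42 in the other names pooled. CD4_Th of suffix 1 was nearer, at 1.50, and against CD4_Th alone Spry1 was not separated (0.82 [-0.31, 2.05]). It was found in 15 cells there. In suffix 2 the Spry1 level was 1.30 in CD4_Tfh and 0.45 in the other names (1.53 [-0.21, 3.13]). Its exons overlap the antisense gene Gm42922, and whether any of its UMIs came from that gene was not tested. Hivep3, a zinc finger DNA-binding protein, was at 2.30 in CD4_Tfh and 0.59 in the other names of suffix 1 (1.97), with 9 of its 20 UMIs in 1 cell. CD4_Th of suffix 1 had Hivep3 at 1.20, and against CD4_Th alone it was not separated either (0.94 [-0.31, 2.33]). The rule asked for a 2-fold ratio with an interval clear of 1 in suffix 1 and the same side of 1 in suffix 2. It was met by 38 genes on the high side, of which 15 were named, and by 29 on the low side, of which 10 were named. The other genes named on the high side held 6 to 19 UMIs each in the CD4_Tfh cells of suffix 1. They were Atp9a, Trp53inp2, Mavs, Dpy19l4, Usp45, AW011738, Nhlrc3, Zfp831, Plekhn1 and Ctnnbip1, with log2 ratios of 1.49 to 2.26. The 10 genes named on the low side were Il1rl1, Dapl1, Ube2w, Rapsn, Cables2, Neb, Arl5a, Tnfrsf9, Bach2 and Fgl2, with log2 ratios of -4.46 to -1.53. Bach2, a repressor that holds back effector T cell genes, had one of -1.59 in suffix 1 but of -0.09 in suffix 2.

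Secreted helper factors were sparse. Il21, the cytokine that drives germinal centre B cells, had 2 UMIs in 2 CD4_Tfh cells of suffix 1, against 14 UMIs in CD4_Th, and in suffix 2 it had 4 UMIs in 3 CD4_Tfh cells and 0 UMIs in the other CD4 names. Il2, the T cell growth factor, had 9 UMIs in 8 CD4_Tfh cells of suffix 1, while CD4_Th held 26 UMIs with 22 of them in 1 cell. These counts place both cytokines in single cells of CD4_Tfh and CD4_Th, with no order between the names that both libraries share. The list of secreted factors, with 5 of 9 measured, summed to 3.68 in CD4_Tfh and 3.05 in the other names of suffix 1, and to 4.55 and 3.05 in suffix 2. Il2 was called higher in suffix 1 and Il10, an anti-inflammatory cytokine, lower in suffix 2. At least 20 UMIs were held by 3 members in suffix 1 and 2 in suffix 2. Calls over all genes were 5.01% higher and 6.67% lower in suffix 1, and 5.64% and 9.13% in suffix 2. Il17a, the cytokine of T helper 17 cells, had 0 UMIs in CD4_Tfh of suffix 2, against 128 in the other names, and CD4_Th alone was at 23.0. Xcl1, a chemokine made by cytotoxic cells, had 8 UMIs in suffix 1, and in suffix 2 it had 18 UMIs in 4 CD4_Tfh cells and 18 UMIs in the other names (2.27). Of the 18 UMIs in CD4_Tfh, 10 came from 1 cell.

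Genes of regulatory T cells were present in CD4_Tfh at levels between CD4_Treg and the naive and memory names. Ctla4, the inhibitory receptor that competes with CD28, was at 37.9 in CD4_Tfh of suffix 1, against 96.0 in CD4_Treg, 20.1 in CD4_Th, 0.94 in CD4_Tcm and 1.33 in CD4_Tn. In suffix 2 it was at 25.5, against 89.6, 1.99, 0.61 and 2.26 in the same order. It was found in 71 of 116 and 25 of 42 CD4_Tfh cells. Ikzf2, which encodes the regulatory T cell factor Helios, was at 25.1 and 30.1 in CD4_Tfh, against 69.1 and 75.0 in CD4_Treg, 7.95 and 10.8 in CD4_Th, 1.50 and 2.03 in CD4_Tcm and 1.13 and 2.55 in CD4_Tn. CD4_Tfh was second to CD4_Treg for both genes in both libraries. Both were found in 1 cell in 31.0% and 45.2% of CD4_Tfh cells, against 85.5% and 90.2% of CD4_Treg, 16.1% and 5.36% of CD4_Th, 1.55% and 0% of CD4_Tcm and 1.08% and 10.8% of CD4_Tn.

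Other regulatory genes were well below the CD4_Treg level. Il2ra, the alpha chain of the interleukin 2 receptor, was at 6.55 and 6.71 in CD4_Tfh and 23.8 and 21.0 in CD4_Treg. CD4_Th also stood above CD4_Tfh for Il2ra, with log2 ratios of CD4_Tfh over CD4_Th of -0.51 [-1.05, 0.04] in suffix 1 and -0.92 [-1.57, -0.29] in suffix 2. Tnfrsf9, the receptor 4-1BB, was at 3.79 in CD4_Tfh and 11.7 in all other CD4 names of suffix 1 (-1.62), and at 6.93 and 13.9 in suffix 2 (-1.01). Il1rl1, the interleukin 33 receptor ST2, was at 0.23 and 5.04 in suffix 1 (-4.46 [-7.51, -2.59]) and at 1.30 and 9.70 in suffix 2 (-2.90 [-4.36, -1.76]). Its whole interval lay beyond 2-fold lower in both, as did those of 6 of 2234 genes in suffix 1 (0.269%) and 13 of 1489 in suffix 2 (0.873%). These last 2 genes were called lower in both libraries. Icos, the receptor whose signal keeps follicular helper cells in place, did not keep its position between libraries. It was at 18.2 in CD4_Tfh and 15.8 in the other names of suffix 1 (0.20), but at 7.36 and 26.0 in suffix 2 (-1.82 [-2.36, -1.32]), with CD4_Treg at 46.2 and 53.7. The regulatory list, with 9 of 16 measured, summed to 106 in CD4_Tfh and 104 in the other names of suffix 1, and to 94.6 and 135 in suffix 2, with 0 members called higher and 3 called lower in each. The third was Il1r2, a decoy receptor for interleukin 1, in suffix 1 and Il10 in suffix 2. Of all genes, 6.67% were called lower in suffix 1 and 9.13% in suffix 2. The regulatory sum was 324 and 323 in CD4_Treg, and 111 and 47.9 in CD4_Th. These differences depend on which names stand in the comparison, and without CD4_Treg the log2 ratio of Tnfrsf9 in suffix 1 was 0.53 and that of Arl5a 0.08.

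Genes of naive and central memory cells stood lower in CD4_Tfh. Lef1, a transcription factor of naive T cells that also acts early in follicular helper cells, was at 9.43 in CD4_Tfh and 25.9 in the other CD4 names of suffix 1 (-1.46 [-1.80, -1.14]), and at 4.11 and 11.1 in suffix 2 (-1.43 [-2.19, -0.76]). Dapl1, named for its likeness to a death-associated protein, was at 0.92 and 11.4 in suffix 1 (-3.64) and at 2.17 and 7.14 in suffix 2 (-1.72). The high side of these ratios came from CD4_Tn and CD4_Tcm, where Lef1 was at 41.5 and 35.9 in suffix 1, while CD4_Treg and CD4_Th were at 2.76 and 2.25, below CD4_Tfh. Without CD4_Tn and CD4_Tcm the log2 ratios in suffix 1 turned to 1.84 for Lef1 and 1.46 for Dapl1. Lef1 in CD4_Tfh thus lay between these pairs of names, and its exons overlap the antisense gene Gm43352. S1pr1, which lets T cells leave lymphoid tissue, was at 13.7 and 18.6 in suffix 1 and at 4.33 and 9.34 in suffix 2. The naive and memory list, with 5 of 12 measured, summed to 46.7 and 77.4 in suffix 1 and to 25.5 and 40.1 in suffix 2, with 2 and 3 members called lower and 0 higher. Of all genes, 6.67% and 9.13% were called lower in these suffixes.

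Of the transcription factors of follicular helper cells, 4 of 13 were measured. Beside Tox2 and Lef1 these were Tox and Id3. Tox, a relative of Tox2, was at 4.83 in CD4_Tfh and 4.62 in the other names of suffix 1, and at 6.28 and 4.04 in suffix 2. Id3, an inhibitor of E proteins, was at 5.75 and 5.20 in CD4_Tfh, with a log2 ratio of 1.07 in suffix 2. The 4 genes summed to 21.0 and 35.2 in suffix 1 and to 15.8 and 17.7 in suffix 2, with 1 member called higher (Tox2 in suffix 1, Id3 in suffix 2) and Lef1 called lower in each library. All 4 held at least 20 UMIs in suffix 1, and 3 did so in suffix 2. Most of the sum in the other names of suffix 1 was Lef1. Calls over all genes were 5.01% higher and 6.67% lower in suffix 1, and 5.64% and 9.13% in suffix 2. Of factors that oppose the follicular fate, 2 of 9 were measured, and they summed to 16.6 and 17.3 in suffix 1 and to 17.5 and 15.7 in suffix 2, with 0 called.

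Genes of other T cell lineages did not stand higher in both libraries. Gata3, the factor of T helper 2 cells, was at 8.05 and 5.85 in CD4_Tfh, against 22.5 and 20.8 in CD4_Th. The T helper 1 list, with 4 of 10 measured, had 0 members called in suffix 1 and 2 called lower in suffix 2, Il18r1 and Il18rap, the chains of the interleukin 18 receptor. The T helper 17 list, with 3 of 7 measured, summed to 0.92 in CD4_Tfh and 0.44 in the other names of suffix 1, and to 0.87 and 7.99 in suffix 2. At least 20 UMIs were held by 0 of its members in suffix 1 and by 2 in suffix 2, where both were called lower. The exhaustion list, with 5 of 10 measured and 3 with at least 20 UMIs in each library, had 0 members called in either. The cell cycle list, with 12 of 15 measured, summed to 12.8 and 14.4 in suffix 1 and to 15.4 and 17.2 in suffix 2. Of its members with at least 20 UMIs, 0 of 6 were called in suffix 1 and 2 of 5 were called lower in suffix 2. Interferon-stimulated genes, with 12 of 16 measured, summed to 34.1 and 33.4 in suffix 1 and to 33.1 and 45.0 in suffix 2. Of the 9 with at least 20 UMIs in each library, 2 were called lower in suffix 1 and 1 in suffix 2. Chaperones and other stress genes, with 4 of 9 measured, summed to 197 and 152 in suffix 1 and to 129 and 118 in suffix 2. Of these 4 genes, 0 were called in suffix 1 and 1 was called lower in suffix 2. Penk, the enkephalin precursor, was at 1.49 and 3.73 in suffix 1 (-1.32) and at 0.22 and 7.63 in suffix 2 (-5.14), with the other names led by CD4_Th in suffix 1 and by CD4_Treg in suffix 2. All 13 Penk UMIs of CD4_Tfh in suffix 1 came from 1 cell. T cell genes of the TNF family, with 11 of 15 measured and Tnfsf8 among them, summed to 57.4 and 49.3 in suffix 1 and to 50.7 and 57.8 in suffix 2. At least 20 UMIs were held by 8 members in suffix 1, with 1 called higher and 1 lower. In suffix 2 they were held by 6, with 1 called higher and 3 lower. Beside these list counts, calls over all genes were 5.01% higher and 6.67% lower in suffix 1, and 5.64% and 9.13% in suffix 2.

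CD4_Tfh cells differed among themselves in Ikzf2, and splitting them by it, a choice made after the data were seen, gave groups that differed in some genes. An Ikzf2 UMI was found in 52 of 116 cells of suffix 1 (44.8%) and 28 of 42 of suffix 2 (66.7%), against 94.1% and 98.8% of CD4_Treg, 39.3% and 37.5% of CD4_Th, 5.04% and 9.62% of CD4_Tcm and 4.11% and 16.2% of CD4_Tn. Cells with the UMI were slightly deeper than cells without, with medians of 733 and 657.5 UMIs in suffix 1 and 961.5 and 887 in suffix 2. Of 717 genes with enough UMIs in suffix 1, 25 stood 2-fold higher with an interval above 1 (3.49%) and 30 stood 2-fold lower with an interval below 1 (4.18%). In suffix 2 the counts were 19 (4.48%) and 19 (4.48%) of 424. Of the genes tested in both, 11 of 16 on the high side and 12 of 15 on the low side lay on the same side of 1 in suffix 2, but the interval there was clear of 1 for 2 of the 16 and 4 of the 15. Markers of other cell types also differed between the groups. The macrophage list summed to 20.2 with and 18.4 without the UMI in suffix 1, and to 11.3 and 23.1 in suffix 2 (-1.03 [-1.76, -0.29]). The neutrophil list summed to 56.5 and 77.3 in suffix 1 (-0.45 [-0.70, -0.21]) and to 26.3 and 28.4 in suffix 2, and the part of these markers in the split was not tested.

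The cells with Ikzf2 carried more Il2ra and Ift80. Il2ra was at 12.4 in cells with an Ikzf2 UMI and 1.12 in cells without in suffix 1 (3.46 [2.15, 5.14]), and at 9.19 and 0.75 in suffix 2 (3.62 [1.03, 8.97]). Ift80 was at 11.2 and 1.12 in suffix 1 (3.32 [1.99, 5.00]) and at 8.27 and 2.24 in suffix 2 (1.88 [0.18, 4.25]). Ift80 was thus close to a gene of these cells within the name, with 30 of 35 Ift80-positive cells of suffix 1 and 15 of 17 of suffix 2 holding Ikzf2. In the other names of suffix 1, Ikzf2 was in 23 of 23 Ift80-positive CD4_Treg cells, 4 of 19 CD4_Tcm cells and 8 of 42 CD4_Tn cells. Lef1 was at 14.2 and 4.93 in suffix 1 (1.53 [0.80, 2.31]) and had 18 UMIs with and 1 UMI without in suffix 2, under the minimum of 20. Id3 was at 8.78 and 2.91 in suffix 1 (1.59 [0.65, 2.63]) and at 6.43 and 2.24 in suffix 2 (1.52 [-0.22, 3.91]). Regulatory genes without Ikzf2 itself summed to 94.0 and 69.9 in suffix 1 (0.43) and to 71.3 and 48.5 in suffix 2 (0.56). Both Il2ra and Ift80 had intervals above 0 in both libraries, while Id3 did so in suffix 1 and not in suffix 2. Ctla4 had log2 ratios of 0.22 and 0.84.

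Ier5, S100a6, S100a4 and S100a11 stood lower in the cells with Ikzf2 in both libraries. Icos and Tnfsf8 stood lower with an interval clear of 0 in 1 library each. Icos was at 8.55 in cells with an Ikzf2 UMI and 27.3 in cells without in suffix 1 (-1.68 [-2.26, -1.13]), and at 6.12 and 10.4 in suffix 2 (-0.77 [-1.83, 0.33]). Ier5, an immediate early gene, was at 9.26 and 24.2 in suffix 1 (-1.39) and at 7.66 and 22.4 in suffix 2 (-1.55). The activation list as a whole did not follow Ier5, summing to 219 with and 248 without the UMI in suffix 1 (-0.18 [-0.31, -0.05]) and to 150 and 127 in suffix 2 (0.24 [-0.01, 0.50]). S100a6, a calcium-binding protein of effector and memory T cells, was at 6.41 and 27.3 in suffix 1 (-2.09) and at 9.19 and 24.6 in suffix 2 (-1.42). S100a4 had log2 ratios of -1.11 [-1.62, -0.61] and -3.75 [-4.44, -3.11]. Those of S100a11 were -1.20 [-1.71, -0.71] and -1.52 [-2.09, -0.96]. Pdcd1 was at 0.95 and 4.03 in suffix 1 and at 2.76 and 3.73 in suffix 2. Tnfsf8 was at 11.9 and 16.4 in suffix 1 (-0.46 [-1.01, 0.08]) and at 9.19 and 29.1 in suffix 2 (-1.66 [-2.40, -0.94]). Of the Tnfsf8-positive cells, 13 of 36 in suffix 1 and 10 of 17 in suffix 2 held Ikzf2, so the marker of the name was found on both sides of the split. Slamf6 leaned the same way, by -0.15 and -1.37, and Cd28 stood lower with Ikzf2 in suffix 1 (-0.81) but not in suffix 2 (0.05). Ikzf2 exons overlap the antisense gene Gm29114, and a cell with 0 UMIs of Ikzf2 may still express it.

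**Figure D5:**
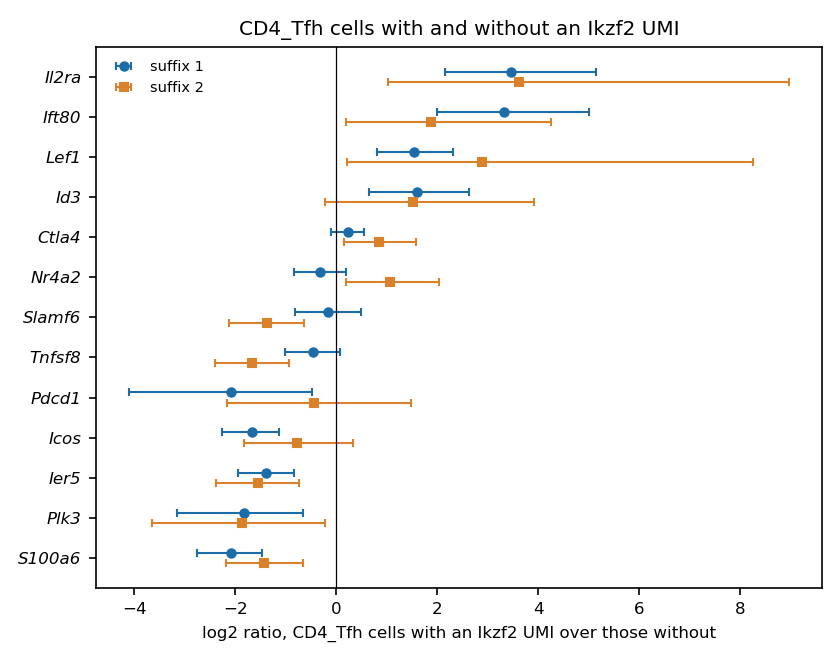
Log2 ratio of the level in CD4_Tfh cells with an Ikzf2 UMI over that in CD4_Tfh cells without (horizontal axis) for 13 genes (rows), with suffix 1 as circles, suffix 2 as squares and exact conditional binomial 95% intervals as bars. Il2ra, at 3.46 and 3.62, lies right of 0 in both suffixes and S100a6, at -2.09 and -1.42, left of it.

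Splitting the same cells by Tnfsf8, also after the data were seen, gave no pattern that both libraries shared among the genes compared. Ctla4 was at 57.3 in cells with a Tnfsf8 UMI and 27.8 in cells without in suffix 1 (1.04), but at 12.7 and 36.5 in suffix 2 (-1.52). Il2ra was at 1.33 and 9.33 in suffix 1 (-2.81) and at 7.08 and 6.42 in suffix 2. Slamf6 was at 9.66 and 9.86 in suffix 1 and at 23.1 and 6.82 in suffix 2 (1.76), where 1 cell held 20 of the UMIs. Cells with Tnfsf8 were deeper, with medians of 758 and 650.5 UMIs in suffix 1 and 1084 and 939 in suffix 2.

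Markers of macrophages and neutrophils were found in all CD4 names, and in CD4_Tfh at levels near those of the others. The macrophage list, with 5 of 9 measured, summed to 19.2 in CD4_Tfh and 16.5 in the other CD4 names of suffix 1, and to 14.7 and 16.0 in suffix 2. The neutrophil list, with 7 of 8 measured, summed to 67.0 and 76.5 in suffix 1 and to 26.8 and 31.0 in suffix 2. Most of it was S100a8 and S100a9, at 28.1 and 34.3 in CD4_Tfh and 30.3 and 40.6 in the other names of suffix 1. The gamma-delta and innate lymphoid list, here Il17a and Il1rl1, stood lower, at 0.46 and 5.28 in suffix 1 (-3.52) and at 1.30 and 15.4 in suffix 2 (-3.57). The natural killer list, here Xcl1 alone, had log2 ratios of 0.79 [-0.52, 1.90] in suffix 1 and 2.27 [1.24, 3.30] in suffix 2. In B cell markers, with 4 of 9 measured, the sums were 0.34 and 0.26 in suffix 1, and the measured dendritic markers Batf3 and Cd40 were at 0 in CD4_Tfh of both libraries. CD8 T cell and epithelial markers had 0 genes measured, and monocyte and fibroblast markers summed to 2.07 and 0.46 in CD4_Tfh and 1.93 and 0.26 in the other names of suffix 1, and to 2.82 and 0.43 and to 2.33 and 0.63 in suffix 2. At least 5 macrophage and neutrophil UMIs, S100a8 and S100a9 aside, were held by 10 of 116 CD4_Tfh cells (8.62% [4.21, 15.3]) and 3 of 42 (7.14%), against 2.33% to 5.45% of the other CD4 names of suffix 1 and 0% to 7.69% of suffix 2. Without such cells of any CD4 name, 109 of 2202 genes were called higher and 165 lower in suffix 1. The log2 ratio was then 2.27 for Tnfsf8 and 1.70 [-0.12, 3.26] for Tox2.

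Across all 23 cell type names of suffix 1, Tnfsf8 was not limited to CD4 cells. CD4_Th and CD4_Tfh led the names of suffix 1, and 5 cells named Mono_Itgal, at 22.4, led those of suffix 2 above CD4_Tfh. In suffix 1 Tnfsf8 was at 2.43 in fibroblasts, 1.97 in natural killer cells and 1.04 in CD8_Tex, and in suffix 2 natural killer cells were at 3.86 and CD8_Tex at 1.11. The 5 genes whose log2 level over the names was most like that of Tnfsf8 were Tdrkh, Gm12840, Capn3, Mttp and Zap70, with Pearson correlations of 0.81, 0.80, 0.78, 0.77 and 0.77 over the 23 names (0.5 UMI added). The names come from 1 library and differ in depth, and Tdrkh itself had 0 UMIs in CD4_Tfh, so the likeness rests on the other names.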

How the data were processed

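The submitters' processing notes name Cell Ranger, Seurat and GRCm38 (mm10), and give neither versions nor roles. The deposited count table gives raw UMI counts, all of them whole numbers. Of it, 4099 complete gene rows over 16383 cells were used, and 1 incomplete row was left out. Cell type names are the authors' deposited annotation, and no cell was filtered further. Doublets were not searched for, and no label states that they had been taken out. Mitochondrial genes were not analysed here.

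UMIs were summed over the cells of a name within a suffix and scaled to 10000. Intervals were exact Poisson for levels, exact conditional binomial for ratios and Clopper-Pearson for shares, all at 95%, and a count of 0 took a floor of 3 counts. They cover counting error only. A call needed a 2-fold ratio and 20 UMIs. Named genes were the 15 highest and 10 lowest log2 ratios of suffix 1 with an interval clear of 1 and the same side of 1 in suffix 2, with the members of the gene lists in addition, and splits by Ikzf2 and Tnfsf8 were added after the data were seen. The members, lists and rules were chosen with earlier results of these data known. Thinning drew 500 UMIs per cell. The computation of ratios was tested on simulated data. Symbols were matched to GENCODE M21 on GRCm38 for 4063 of 4099 rows. The processing notes do not state whether the counting used strand, and sharing of reads between overlapping genes was not tested. Computations used pandas 2.3.3, scipy 1.17.1 and numpy 2.4.6 under Python 3.11.15, with figures drawn in matplotlib 3.10.9. Results for some genes and 1 cell type name are not reported here.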

Additional observations from a re-analysis of the deposited data

How the results depend on the processing

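Scaling to UMIs per cell, leaving S100a8 and S100a9 out of the total and leaving out the 5% of cells with the most UMIs each kept all 113 results within counting error, and leaving out ribosomal protein genes moved 1 of 113. The suffix and the choice of names in the comparison mattered more. In suffix 2, 47 results were the same, 63 moved and 2 reversed. Without CD4_Tn and CD4_Tcm 59 moved and 5 reversed, and without CD4_Treg 43 moved and 3 reversed. With equal weights 18 moved and 1 reversed. For Tnfsf8, at 2.29 in suffix 1, the log2 ratio was 1.32 with the other CD4 names weighted equally, 1.90 without CD4_Treg and 1.55 without CD4_Tn and CD4_Tcm. For Tox2, at 2.43, it was 0.68 in suffix 2 and 0.99 without CD4_Tn and CD4_Tcm. For the summed surface and B cell help list, at 0.42, it was -0.014 in suffix 2, 1.24 without CD4_Treg and -0.51 without CD4_Tn and CD4_Tcm. Alternatives chosen after seeing the data gave 3.35 for Tnfsf8 and 4.10 for Tox2 without CD4_Th, and 4.70 for Tnfsf8 in suffix 2 without the richest cell of each name. The 112 genes called higher, of 2234, became 62 of 1734 without CD4_Tn and CD4_Tcm. At a minimum of 10 UMIs they were 178 of 2603, at 50 UMIs 36 of 1618 and at 1 UMI 406 of 3573. At 1 UMI the median log2 ratio of all genes was 0.13. The 149 called lower, of 2234, became 65 of 1618 at 50 UMIs.

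Without CD4_Tn and CD4_Tcm the log2 ratio reversed to 1.46 for Dapl1, 0.78 for Bach2, 1.84 for Lef1 and 0.46 for Ifi208. Without CD4_Treg it reversed to 1.02 for Rapsn, 0.083 for Arl5a and 0.53 for Tnfrsf9, and in suffix 2 to 0.39 for Ifi209. The T helper 17 list reversed to -3.21 in suffix 2, to -0.26 with equal weights and to -0.32 without CD4_Tn and CD4_Tcm. Beyond the names left out, the cause was not tested. Of 1129 values of single genes and lists under the alternatives, 924 lay within counting error of the reported value, 194 moved and 11 reversed. A further 59 values covered the gene counts, Tnfsf8, Tox2, the surface list and the share. Of those, 43 were counted as the same and 16 as moved. No paired analysis was possible because no label ties a barcode suffix to a sample, and for the same reason no sample was left out in turn. Genes with few UMIs per name carry wide intervals, as Tox2 does in the 42 cells of suffix 2. The smallest difference that could be detected at this depth was not measured.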
